A study of Mus musculus with 13 samples.

Results

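The genes encoding mitochondrial ribosomal proteins were followed in gluteal white adipose tissue (WAT) taken from mice kept at 22°C or at 29°C. They were taken from the count table as every gene whose symbol starts with Mrpl, for the large subunit, or Mrps, for the small subunit, followed by a digit. Of 82 such genes, 4 pseudogenes were dropped, which left 78 genes (49 Mrpl and 29 Mrps) among the 34419 in the table. The gluteal depot, a subcutaneous fat pad, came from male C57BL/6J mice without a transgene, 7 living at 22°C and 6 at 29°C, a thermoneutral temperature for mice, from birth until 13 weeks of age. All 13 mice lost the hair of the posterior body after weaning and were housed singly with little bedding, so no group kept its fur. Each mouse gave 1 bulk RNA library. The question put to these genes was whether the machinery that makes mitochondrial proteins differed in mRNA level between the temperatures.

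Mitochondria carry their own ribosome, which translates the few proteins encoded by mitochondrial DNA, all of them subunits of oxidative phosphorylation (OXPHOS). Its 2 rRNAs come from the mitochondrial genome, whereas its proteins are encoded in the nucleus, made in the cytosol and imported. White fat holds few mitochondria beside brown or beige fat, in which cold exposure is known to raise mitochondrial content. The symbol does not always give the place of a protein: the products of *Mrps18a* and *Mrps30* sit in the large subunit, and that of *Mrps36* belongs to the 2-oxoglutarate dehydrogenase complex. Summaries by subunit followed the symbol, so *Mrps18a*, *Mrps30* and *Mrps36* were counted with the small subunit.

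Total counts were between 22356637 and 25245785 per library. A cluster of lower totals held 22°C mice 1 to 5 and no mouse from 29°C. Markers of mature adipocytes were abundant in every library, with a summed level of 27248 to 40620 CPM (counts scaled to the TMM-adjusted library size) at 22°C and 34773 to 42077 CPM at 29°C over 12 genes, of which 8 were below 0 and 1 was called lower. The summed level of 34 skeletal muscle markers was 1166 to 113052 CPM at 22°C and 202 to 9246 CPM at 29°C, and all 34 had a log2 fold change above 0 although none was called. Brown and beige fat markers summed to 80.1 to 389 CPM at 22°C and 52.7 to 90.8 CPM at 29°C, with 9 of the 11 tested above 0 and 3 called. Lymphocyte markers were above 0 in all 8 tested, with 1 called, at summed levels of 3.66 to 28.9 CPM at 22°C and 3.17 to 20.6 CPM at 29°C. Red blood cell markers were below 0 in all 5, at 286 to 756 CPM at 22°C and 319 to 3370 CPM at 29°C. Epithelium markers were below 0 in all 4 tested, at 2.11 to 78.4 CPM and 2.32 to 315 CPM. Macrophage markers were below 0 in 6 of 8, and no gene of these last lists was called. The part of these cell types in the members' values was not tested. In such bulk samples, a change in the share of a cell type and a change in RNA per cell cannot be told apart.

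All 78 genes were well counted, the lowest count of any member in any library being 126. Levels per length were compared as CPM per kilobase of annotated exon, averaged over the 13 mice. They ranged from 2.38 for *Mrps35* to 45.8 for *Mrps21*, both small subunit proteins, with a median of 12.5 over the members. Next to *Mrps21* came *Mrpl34*, a large subunit protein, at 39.2, *Mrpl12*, which forms the flexible stalk and is also known to bind the mitochondrial RNA polymerase, at 38.7, and *Mrps6*, a protein of the small subunit platform, at 38.0 CPM per kilobase. These levels use the union of all annotated exons, so genes with long or rarely used exons appear low. Together the 78 genes took 0.230% to 0.263% of all counts at 22°C and 0.224% to 0.265% at 29°C, ranges that overlap over most of their length.

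No member was called different between temperatures by edgeR's quasi-likelihood test at P-adj below 0.1, against 0.731% of all 17779 genes tested called higher and 1.21% called lower at 22°C. The smallest P-adj was 0.13, for *Mrps24*. At an unadjusted p below 0.05, 5 members were higher (*Mrps24*, *Mrps34*, *Mrpl43*, *Mrpl18* and *Mrpl47*) and 1 was lower (*Mrps6*), where 10.3% and 8.2% of all genes tested passed in these directions. This count rested on single mice: 12 members were higher without mouse 6 at 29°C (9.34% of all genes in that fit) and 2 without mouse 4 at 29°C (8.87%). It was 3 without mouse 1 at 22°C (8.05% of all genes) or without mouse 2, 3 or 5 at 29°C (8.34%, 7.57% and 8.83%). The count was 8 without mouse 1 at 29°C (9.36%) and 9 without mouse 4 at 22°C (9.60%). The count of lower members was 2 without mouse 1 or 6 at 22°C (7.33% and 9.05% of all genes). It was also 2 without mouse 2, 4 or 5 at 29°C (6.79%, 7.56% and 7.91%). No member had CPM values that did not overlap between groups, which 0.495% of all genes showed in the higher and 0.748% in the lower direction. With DESeq2, 1 member was called higher, *Mrps24*, and 1 lower, *Mrps6*, against 5.58% and 4.65% of the 16388 genes to which it gave an adjusted p. limma on the deposited log2 values called 0 members, beside 101 genes higher and 232 lower of the 17779 tested.

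The direction was above 0 for 53 of the 78 members (67.9%), compared with 51.6% of all genes tested, and the size was small. The median log2 fold change, the log2 ratio of 22°C to 29°C, was 0.05 over the members, 0.06 over the large subunit and 0.05 over the small subunit, against 0.007 over all genes. In linear terms, the members' median was 3.86% higher at 22°C. The 49 large subunit genes ran from -0.16 to 0.36, with 32 above 0. The 29 small subunit genes ran from -0.36 to 0.26, with 21 above 0. No member exceeded 0.5 in either direction. The 95% interval of the log2 fold change lay within 0.5 of 0, a change of 41.4%, for 73 of the 78 members and included 0 for 72. The widest reach was from -0.62, for *Mrps6*, to 0.82, for *Mrpl42*. For all but 5 members, then, the interval of this fit without covariates, taken 1 gene at a time, held the difference to less than that size.

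**Figure D1:**
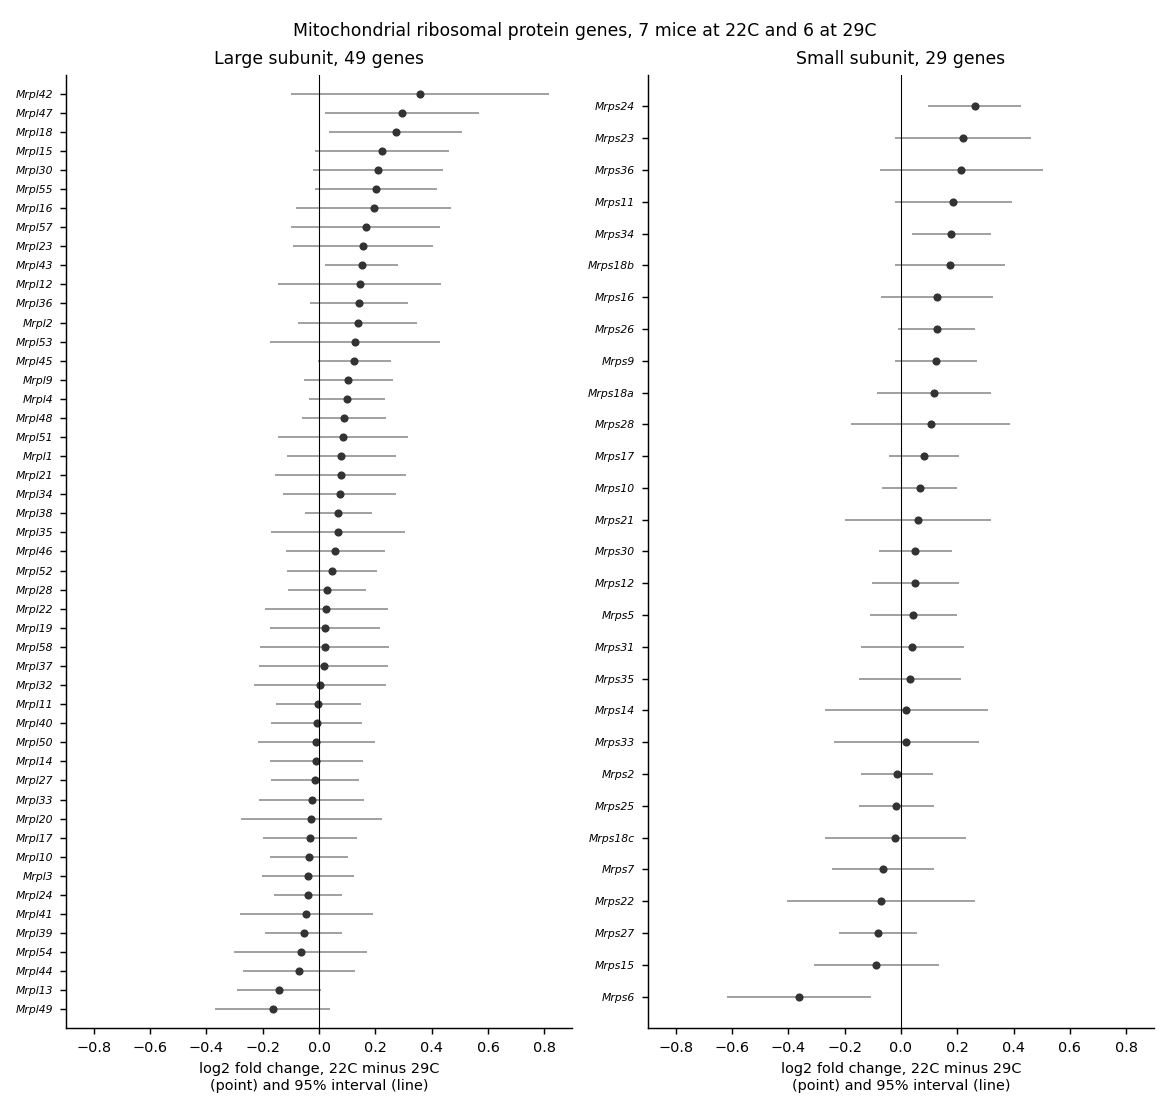
Log2 fold change (22°C minus 29°C, x axis) of each member, with large subunit genes on the left and small subunit genes on the right, as points with 95% intervals from edgeR's quasi-likelihood fit (7 mice against 6). Most points lie between -0.1 and 0.2, and the interval includes 0 for 72 of the 78 genes.

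In the large subunit, the highest log2 fold changes were those of *Mrpl42*, *Mrpl47* and *Mrpl18*, and in none did the groups separate. *Mrpl42*, a protein found in mitochondrial but not bacterial ribosomes, was also the member with most reads, at 47.1, 55.8 and 114 CPM (lowest, median and highest) at 22°C and 46.9, 50.8 and 63.5 CPM at 29°C. The 22°C range was set by 2 mice above 100 CPM, and the other 5 lay inside the 29°C range. Its log2 ratio was 0.36 (SE 0.21, P-adj 0.389). Without the 3 mice of highest skeletal muscle score, all from 22°C, it was -0.008 (P-adj 0.986), and it was 0.24 without mouse 1 and 0.19 without mouse 7, both from 22°C. *Mrpl47*, whose product lies near the exit of the peptide tunnel, was at 28.9, 31.7 and 50.9 CPM at 22°C and 25.7, 29.3 and 31.2 CPM at 29°C, a log2 ratio of 0.29 (SE 0.13, P-adj 0.241). All 7 mice at 22°C were above the 29°C mean of 28.8 ± 2.18 CPM (SD, n = 6), but the ranges overlapped. *Mrpl18*, a protein of the central protuberance, was at 27.1, 31.5 and 42.3 CPM against 24.8, 26.6 and 33.9 CPM, a log2 ratio of 0.27 (SE 0.11, P-adj 0.215). Without the mice of highest muscle score, the log2 fold changes of *Mrpl47* and *Mrpl18* were 0.09 and 0.17, and that of *Mrpl47* was 0.19 without mouse 1 at 22°C alone.

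Smaller but tighter differences were found for *Mrpl43* and *Mrpl45*. *Mrpl43*, which has no bacterial counterpart, was at 25.9, 28.1 and 29.9 CPM at 22°C and 23.4, 24.7 and 27.7 CPM at 29°C, with all 7 mice at 22°C above the 29°C mean. Its log2 ratio of 0.15 (SE 0.06, P-adj 0.212) moved little without the mice of highest muscle score, to 0.14. *Mrpl45*, which lines the tunnel exit and helps attach the ribosome to the inner membrane, was at 31.0, 33.4 and 37.5 CPM against 29.2, 30.4 and 35.1 CPM, a log2 ratio of 0.13 (SE 0.06, P-adj 0.279). For *Mrpl43*, mice 1 and 6 at 29°C, at 26.9 and 27.7 CPM, lay inside the 22°C range. For *Mrpl45*, mice 2 and 5 at 29°C, at 35.1 and 31.3 CPM, did so, and mouse 2 stood apart from the other 5.

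At the other end stood *Mrpl49* and *Mrpl13*. *Mrpl49*, another protein with no bacterial counterpart, was at 30.7, 34.7 and 42.2 CPM at 22°C and 31.7, 39.1 and 45.5 CPM at 29°C, a log2 ratio of -0.16 (SE 0.09, P-adj 0.372). *Mrpl13*, a conserved core protein, was at 21.6, 25.4 and 27.1 CPM against 24.8, 27.4 and 30.6 CPM, a log2 ratio of -0.14 (SE 0.07, P-adj 0.293). No mouse at 22°C exceeded the 29°C mean of *Mrpl13*, and the ranges still overlapped between 24.8 and 27.1 CPM.

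Members with roles beyond the core showed no separation either. The stalk pair comprised *Mrpl12*, at 62.0 ± 9.78 CPM at 22°C (SD, n = 7) and 56.1 ± 11.8 CPM at 29°C (SD, n = 6), and *Mrpl10*, which anchors the stalk, at 58.6 ± 4.23 and 60.1 ± 4.87 CPM. Their log2 fold changes were 0.14 (SE 0.13, P-adj 0.608) and -0.04 (SE 0.06, P-adj 0.806). That of *Mrpl12* was 0.08 without mouse 1 at 22°C or mouse 4 at 29°C and 0.24 without mouse 6 at 29°C. *Mrpl58*, a peptidyl-tRNA hydrolase built into the ribosome that frees stalled chains, was at 22.7 ± 3.29 and 22.3 ± 2.99 CPM, a log2 ratio of 0.02 (SE 0.11, P-adj 0.945). *Mrpl44*, which carries a fold of the ribonuclease III family, was at 21.1 ± 2.08 and 22.2 ± 2.80 CPM, a log2 ratio of -0.07 (SE 0.09, P-adj 0.723). Each of these differences was smaller than the SD within either group, and the signs for *Mrpl10*, *Mrpl44* and *Mrpl58* turned under other settings.

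The small subunit held both the smallest P-adj and the only member lower at an unadjusted p below 0.05. *Mrps24*, a protein at the mRNA entry site, was at 38.3, 40.5 and 49.6 CPM at 22°C and 29.9, 35.1 and 39.2 CPM at 29°C. Only the highest mouse at 29°C reached into the 22°C range. The log2 ratio was 0.26 (SE 0.08, P-adj 0.13) with edgeR and 0.26 (P-adj 0.0546) with DESeq2. *Mrps34*, which is required for a stable small subunit, was at 45.2, 49.5 and 51.9 CPM against 37.9, 44.1 and 47.7 CPM, a log2 ratio of 0.18 (SE 0.06, P-adj 0.187). *Mrps26*, another protein without a bacterial counterpart, was at 26.8, 28.2 and 32.2 CPM against 24.2, 26.2 and 29.6 CPM, a log2 ratio of 0.13 (SE 0.06, P-adj 0.307). For each of these 3 genes, all 7 mice at 22°C were above the 29°C mean. Without the 3 mice of highest muscle score, *Mrps24* stood at 0.22, *Mrps34* at 0.19 and *Mrps26* at 0.14.

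*Mrps6* ran the other way. It was at 37.5, 51.8 and 61.8 CPM at 22°C and 52.9, 64.7 and 78.1 CPM at 29°C, and no mouse at 22°C reached the 29°C mean of 66.2 ± 9.38 CPM (SD, n = 6), although the upper part of the 22°C range lay inside that of 29°C. The log2 ratio was -0.36 (SE 0.12, P-adj 0.161) with edgeR and -0.36 (P-adj 0.0664) with DESeq2, and -0.22 without the 3 mice of highest muscle score. The other small subunit genes with most reads were *Mrps7*, a protein of the subunit head, at 53.2 ± 4.47 and 55.6 ± 7.19 CPM, and *Mrps15*, a conserved rRNA-binding protein, at 48.3 ± 7.82 and 51.4 ± 5.43 CPM. Their log2 fold changes, -0.06 (SE 0.08) and -0.09 (SE 0.10), were within the spread between mice.

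The remaining Mrps genes with special roles did not separate the groups. *Mrps12*, a protein of the decoding centre, was at 28.1 ± 1.97 and 27.1 ± 2.77 CPM, with 1 mouse at 29°C far above the others, a log2 ratio of 0.05 (SE 0.07). *Mrps36*, the dehydrogenase component, was at 17.0 ± 3.31 and 14.7 ± 2.44 CPM, a log2 ratio of 0.21 (SE 0.13, P-adj 0.418), and 0.13 without mouse 1 at 22°C. The paralogs *Mrps18a*, *Mrps18b* and *Mrps18c*, which occupy different positions in the ribosome, were at 40.5 ± 5.72, 24.6 ± 3.08 and 18.3 ± 2.77 CPM at 22°C and 37.4 ± 3.54, 21.8 ± 2.05 and 18.6 ± 2.76 CPM at 29°C. Their log2 fold changes were 0.12 (SE 0.09), 0.17 (SE 0.09) and -0.02 (SE 0.12), none of them called. That of *Mrps18a* was 0.06 without mouse 6 at 22°C, and the sign of *Mrps18c* turned under other settings.

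**Figure D2:**
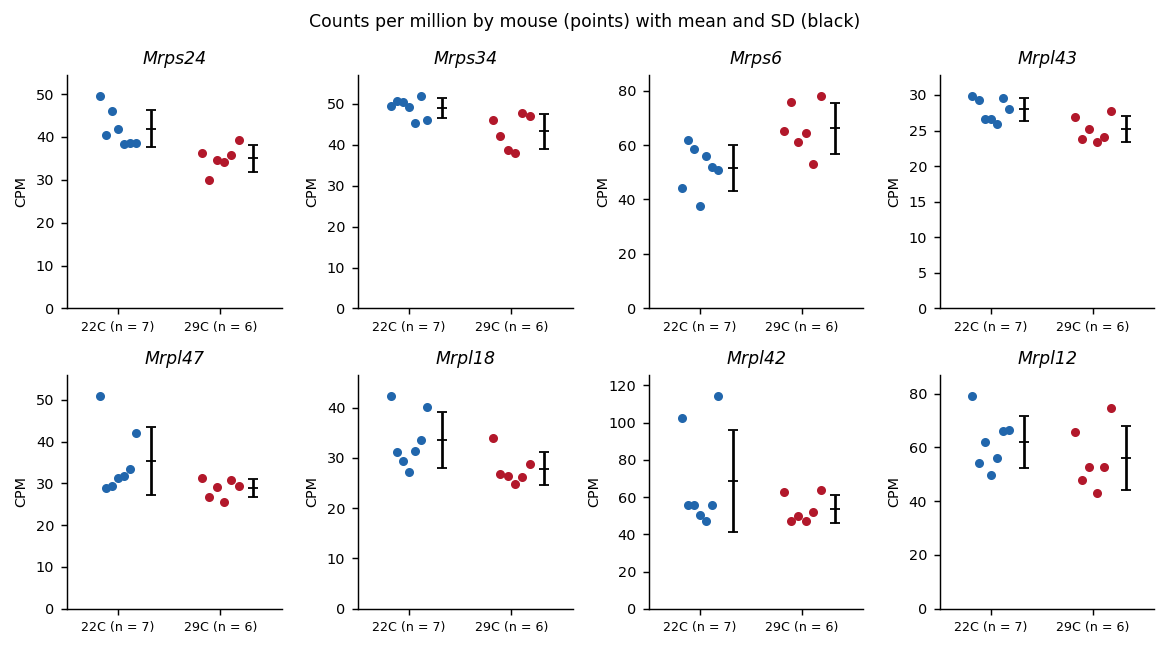
CPM (y axis, from 0) in each mouse at 22°C (blue, n = 7) and 29°C (red, n = 6) for 8 members, with the mean and SD in black beside the points. The groups overlap in every panel. In *Mrpl42*, 2 mice at 22°C stand above 100 CPM, and in *Mrps6* the mice at 29°C lie higher.

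Several of these genes share exon sequence with a neighbour, and counting without strand or with shared bases could mix the pair. In the annotation at hand, 33 of the 78 members shared exon bases with another gene, 18 of them over more than 10% of their exons. *Mrps24* shared 15.4% with *Urgcp* on the same strand, and *Urgcp* was called higher at 22°C, with a log2 ratio of 0.23 (SE 0.06, P-adj 0.0896). *Mrps6* shared 19.9% with *Slc5a3*, the myo-inositol transporter gene that starts at the same promoter, and with a further gene model on the same strand, and *Slc5a3* had a log2 ratio of -0.44 (SE 0.19, P-adj 0.23). Both of these members therefore had a same-strand neighbour with a log2 fold change of the same sign. *Mrpl47* shared 24.2% with genes on the opposite strand, *Ndufb5*, of respiratory complex I, at 0.42 (SE 0.18, P-adj 0.233), and *Actl6a*, at -0.02 (SE 0.07), so a neighbour of the same sign and larger log2 ratio lay here too. *Mrpl18* shared 10.1% with *Tcp1* on the opposite strand, at -0.05 (SE 0.07). *Mrpl43* shared 33.4% with *Twnk* on the opposite strand, the gene of the mitochondrial DNA helicase, at 0.14 (SE 0.04, P-adj 0.137). *Mrps34* shared 77.8% with *Nme3* and *Mapk8ip3*, both of which were slightly below 0, at -0.06 (SE 0.14) and -0.07 (SE 0.07). How far shared reads set these members' values was not tested.

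Differences between mice of 1 temperature exceeded the difference between temperatures. The mean log2 CPM over the 78 members was 4.69, 4.81 and 5.03 (lowest, median and highest) at 22°C and 4.62, 4.76 and 4.96 at 29°C, so the ranges overlapped and the group means, 4.84 ± 0.11 (SD, n = 7) and 4.78 ± 0.13 (SD, n = 6), differed by less than 1 SD. Large subunit genes averaged 4.89 ± 0.12 and 4.83 ± 0.13, and small subunit genes 4.76 ± 0.10 and 4.71 ± 0.12. The members moved together from mouse to mouse. After the group mean of each gene was subtracted, the first principal component held 59.5% of their variance over the 13 mice, and the median correlation over 3003 pairs of members was 0.51, with 92.2% of pairs above 0. These pairs share the same libraries and scaling, so this is a description only.

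The extremes fell on a few mice of both temperatures. Mouse 1 at 22°C was the highest of all 13 for 31 members, and mouse 6 at 29°C for 16. Mouse 4 at 29°C was the lowest for 36 members, and mouse 4 at 22°C for 13. Skeletal muscle markers took 7.41% of counts in mouse 1 at 22°C, 0.0192% in mouse 6 at 29°C, the lowest of all, 0.341% in mouse 4 at 29°C and 1.96% in mouse 4 at 22°C. Mouse 7 at 22°C, with the most muscle counts, 9.92%, was the highest for 8 members and had a mean log2 CPM over the members of 4.92. The part of muscle RNA in these differences between mice was not tested. The number of members above 0 rested in part on these mice. It was 45 without mouse 1 at 22°C, where the members' median was 0.03. Of the mice at 29°C, leaving out mouse 2 gave 49 and a median of 0.03, mouse 4 gave 44 and 0.02, and mouse 6 gave 64 and 0.09. With library totals in place of TMM scaling, 39 members were above 0 and their median was -0.0004.

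**Figure D3:**
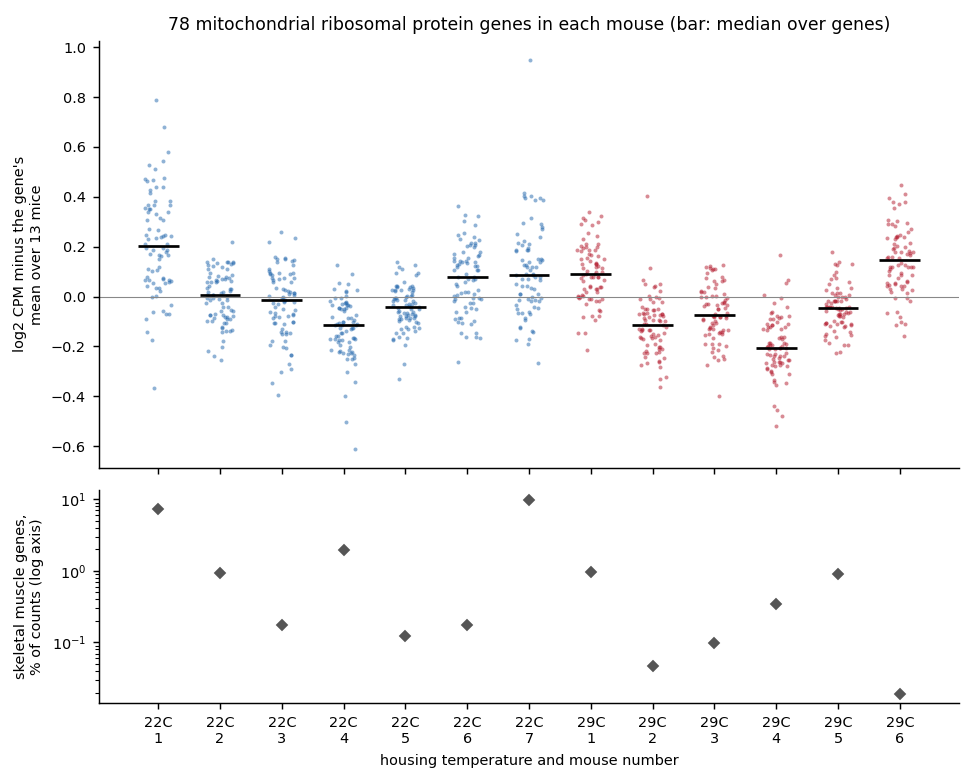
Upper panel, log2 CPM of each of the 78 members minus its mean over the 13 mice (y axis), with 1 column of points per mouse (blue, 22°C, red, 29°C) and the median as a bar. Lower panel, share of counts in 34 skeletal muscle genes (percent, log axis). Mouse 1 at 22°C and mouse 6 at 29°C have the highest medians, at 7.41% and 0.0192% muscle counts.

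The sequences around the members' starts were searched for motifs known from genes of mitochondrial biogenesis, as a description. RefSeq promoter windows of 300 bases, 250 before and 50 after the start in the GRCm38.p6 build, were at hand for 69 members in 75 windows. On either strand, the NRF1 core GCGCANGCG was in 21.3% of the members' windows and 6.25% of all 32851 windows, and the ETS and GABPA core CCGGAAG in 34.7% and 8.86%. At least 1 of both was in 48.0% of members' windows and 13.9% of all. The YY1 core AAGATGGCG, which contains the triplet of a start codon, was in 10.7% and 1.40%, the SP1 core GGGCGG in 52.0% and 35.7%, and the CCAAT box in 40.0% and 37.4%. The ERR element TCAAGGTCA was in none of the members' windows and 0.423% of all. Members' windows were also richer in G and C, at a median of 58.7% against 52.7%, and the part of base composition in the matches was not tested. NRF1 cores were in 25% of large and 14.8% of small subunit windows, ETS cores in 31.3% and 40.7%. The median log2 fold change was 0.08 for the 16 members with and 0.05 for the 53 without an NRF1 core, 0.07 for 26 with and 0.04 for 43 without an ETS core, 0.13 for 8 with and 0.05 for 61 without a YY1 core, and 0.08 for 34 with and 0.04 for 35 without an SP1 core. For the CCAAT box the order was the other way, with 0.051 for 27 with and 0.059 for 42 without. These are matches of letters and do not show binding.

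Stretches within the 150 bases before the start, outside annotated exons, are shown 5′ to 3′ on the gene's strand. They are given for 3 members that hold NRF1 or ETS cores (in capitals) and for *Mrps24* and *Mrps6*, which DESeq2 called higher and lower. With -1 as the base before the start, the *Mrpl12* stretch ends at -25 and the *Mrps6* stretch at -67. Those of *Mrpl45*, *Mrpl43* and *Mrps24* end at -1. *Mrpl12* lies at chr11:120484487-120484612 (plus strand), *Mrpl45* at chr11:97315566-97315715 (plus), *Mrpl43* at chr19:45006443-45006557 (minus), *Mrps24* at chr11:5707702-5707851 (minus) and *Mrps6* at chr16:92058186-92058269 (plus), all in GRCm38.p6.
Mrpl12: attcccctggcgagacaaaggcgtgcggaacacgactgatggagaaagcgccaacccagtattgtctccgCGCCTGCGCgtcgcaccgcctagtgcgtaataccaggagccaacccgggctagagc
Mrpl45: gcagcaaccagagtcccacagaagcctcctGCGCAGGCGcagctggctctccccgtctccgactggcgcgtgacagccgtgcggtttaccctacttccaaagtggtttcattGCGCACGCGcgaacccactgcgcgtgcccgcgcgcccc
Mrpl43: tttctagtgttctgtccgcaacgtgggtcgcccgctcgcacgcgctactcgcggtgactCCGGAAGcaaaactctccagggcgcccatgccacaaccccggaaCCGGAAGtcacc
Mrps24: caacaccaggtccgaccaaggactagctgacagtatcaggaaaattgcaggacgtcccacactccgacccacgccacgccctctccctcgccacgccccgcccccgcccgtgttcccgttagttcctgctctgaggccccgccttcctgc
Mrps6: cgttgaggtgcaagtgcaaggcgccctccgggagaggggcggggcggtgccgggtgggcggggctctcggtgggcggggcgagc
*Mrpl45* carries 2 NRF1 cores in this stretch, *Mrpl12* carries 1 and *Mrpl43* carries 2 ETS cores, while the stretches of *Mrps24* and *Mrps6* hold no NRF1, ETS or YY1 core. The searched window of *Mrps24* does hold a YY1 core, whose first base is number 37 of the transcript, past the stretch shown. The *Mrpl43* stretch ends upstream at -115, where it meets an annotated exon, and *Twnk* on the opposite strand shares exon bases with *Mrpl43*.

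The median log2 fold change of the mitochondrial ribosomal protein genes, 0.05, was below those of nuclear OXPHOS subunits and of mitochondrial genome mRNAs. The difference between these families was not tested. Nuclear OXPHOS subunits, which join the mitochondrially encoded ones in the respiratory complexes, were above 0 for 79 of 84 tested, with their median at 0.24. At an unadjusted p below 0.05, 32 were higher and 0 lower, beside 10.3% and 8.2% of all genes tested. Of these 32, 2 were called, where 0.731% of all genes tested were called higher. The 2 were *Cox8b*, a subunit isoform of brown fat and muscle, at 21.2, 28.7 and 111 CPM against 4.79, 8.31 and 19.7 CPM (log2 fold change 2.27, SE 0.53), and *Atp5g2*, of the ATP synthase ring, at 67.8, 71.6 and 90.0 CPM against 48.2, 52.4 and 69.5 CPM (0.44, SE 0.09). The 13 mRNAs of the mitochondrial genome, which the mitochondrial ribosome translates, were all above 0, with a median of 0.36. Of them, 1 was called, *mt-Nd6* at 0.89 (SE 0.22, P-adj 0.0896), beside the same 0.731% of all genes tested. The proteins made from these mRNAs were not measured. The mitochondrial rRNAs were at 0.16 (SE 0.16) for *mt-Rnr1* and 0.25 (SE 0.22) for *mt-Rnr2*, neither called. For *mt-Co2*, 9.31 to 18 CPM were counted at 22°C beside 18808 to 44919 CPM for *mt-Co1*, and counts of mitochondrial mRNAs with near-identical nuclear copies are uncertain. Cytosolic ribosomal proteins, by contrast, were below 0 for 60 of 85, with a median of -0.06. None was called, where 1.21% of all genes tested were called lower.

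The medians of these families were also taken from fits that leave out or adjust for skeletal muscle RNA. Without the 3 mice of highest muscle score, which left 4 mice at 22°C, the median log2 fold change was 0.01 for the mitochondrial ribosomal proteins, with 46 of 78 above 0, 0.13 for nuclear OXPHOS subunits, 0.17 for mitochondrial mRNAs and -0.05 for cytosolic ribosomal proteins. When the fit included each mouse's muscle score, the mean log2 CPM of the 34 markers, it was 0.05, 0.18, 0.26 and -0.07, with 58 of the 78 ribosomal protein genes above 0. Another fit, which does not account for muscle RNA, used the libraries with higher totals alone, mice 6 and 7 at 22°C, of which mouse 7 had the highest muscle share, and the 6 mice at 29°C. In it the members' median was 0.08 with 65 above 0. There, *Mrps24* stood at 0.13, *Mrpl42* at 0.66, *Mrps18a* at 0.34 and *Mrps18b* at 0.33. Of the members, 0 were called in these 3 fits, which called few genes of any kind. Without the 3 mice, 18 genes were called higher and 25 lower of 18093 tested. With the muscle score the calls were 14 and 32 of 17779, and in the libraries with higher totals 1 and 7 of 19033. Per mouse, the mean log2 CPM of OXPHOS subunits was 6.43 ± 0.27 at 22°C and 6.13 ± 0.19 at 29°C, while that of the ribosomal proteins had the means given above, closer together. The part of muscle RNA in the members' remaining difference was not tested further.

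**Figure D4:**
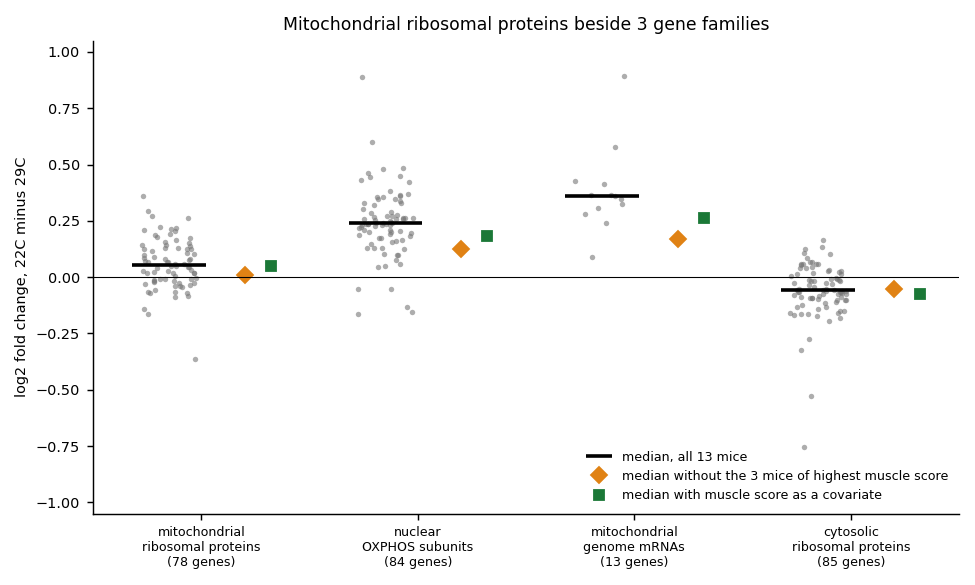
Log2 fold change (22°C minus 29°C, y axis) of the 78 mitochondrial ribosomal protein genes, 84 nuclear OXPHOS subunits, 13 mitochondrial mRNAs and 85 cytosolic ribosomal proteins as points, with the median as a bar and the medians of 2 other fits as a diamond (without the 3 mice of highest muscle score) and a square (muscle score as a covariate). The ribosomal protein median lies at 0.05 and the OXPHOS median at 0.24. Points beyond the axis, 3 OXPHOS and 1 cytosolic ribosomal gene, are not drawn.

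Other genes of mitochondrial translation, transcription, RNA stability and DNA replication also had small log2 fold changes. Over lists of 84 genes, none was called, beside 0.731% of all genes tested called higher and 1.21% lower. Of the 84, 48 were above 0 and the median log2 fold change was 0.03. At an unadjusted p below 0.05, 4 were higher and 1 was lower, beside 10.3% and 8.2% of all genes tested. Mitochondrial ribosomal proteins known by other symbols were above 0 in 4 of 5, led by *Chchd1*, of the small subunit, at 0.26 (SE 0.16, P-adj 0.40). Translation factors were above 0 in 1 of 10, with a median of -0.03. That 1 was *Gfm1*, the elongation factor for translocation, at 0.22 (SE 0.15, P-adj 0.462). *Mtrf1l*, a release factor, was at 4.35, 5.37 and 6.23 CPM at 22°C and 4.85, 6.61 and 7.72 CPM at 29°C, a log2 ratio of -0.31 (SE 0.12, P-adj 0.198). Aminoacyl-tRNA synthetases and related enzymes were above 0 in 14 of 23, with a median of 0.04.

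Ribosome assembly and rRNA modification genes were above 0 in 18 of 29, with a median of 0.03. *Malsu1*, a factor that binds the large subunit during assembly, was at 13.2, 16.5 and 21.9 CPM against 10.8, 13.6 and 14.97 CPM, with a log2 ratio of 0.33 (SE 0.12, P-adj 0.188) and overlapping ranges. The list of mitochondrial transcription and RNA stability also held *Twnk* and *Polg*, genes of mitochondrial DNA replication. Its genes were above 0 in 11 of 17, with a median of 0.03. *Twnk*, at 34.3, 36.1 and 38.4 CPM at 22°C and 30.9, 33.3 and 33.7 CPM at 29°C, was the 1 gene in these lists whose groups did not overlap, though it was not called (P-adj 0.137). Over all genes tested, 0.495% did not overlap in the higher and 0.748% in the lower direction. *Twnk* shares exon bases with *Mrpl43*, and how far shared reads set either value was not tested. *Polrmt*, the mitochondrial RNA polymerase, had a log2 ratio of 0.16 (SE 0.07, P-adj 0.228), and *Grsf1*, of the mitochondrial RNA granules where ribosomes are assembled, 0.22 (SE 0.10, P-adj 0.27).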

How the data were processed

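RNA of gluteal WAT from 13 mice was sequenced, and mice were grouped by the labelled housing temperature. Per the paper and the submitters' notes, the authors aligned reads with STAR 2.7.5a, made gene counts with featureCounts, and deposited these raw counts, without normalization, and regularized log2 values from DESeq2. The notes name GRCm39. The annotation and strand setting are not given in the sources used here, so counts of overlapping genes are uncertain. Symbols were matched by Ensembl identifier, without its version, and exon lengths came from GENCODE M21.

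Counts were compared with edgeR 4.0.16 in R 4.3.3 (TMM scaling, filterByExpr, quasi-likelihood F test, Benjamini-Hochberg adjustment over all 17779 genes tested, no covariate), and genes with P-adj below 0.1 are called. Standard errors were derived from each log2 estimate and its F. A prior count of 2 entered log2 CPM. The script was tested on simulated counts.

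The members and lists were chosen with earlier results of these data known. Named members are those with the smallest p, the highest and lowest fold changes, the most reads, the *Mrps18* paralogs and 5 picked for their roles, and from each pathway list those with the smallest p, of which some are printed. *Mrps21*, *Mrpl34*, *Mrps35*, *Mrps30* and the neighbours were named after their values were seen, as were the OXPHOS subunits and mitochondrial mRNA called. Of 179 list symbols, 7 had no match. Alternatives were DESeq2 1.42.0, limma 3.58.1 on the deposited log2 values, other scalings, filters and thresholds, a replicate block, covariates, and leaving out mice. Leaving out the 3 mice of highest muscle score and using the libraries with higher totals alone were added after seeing the data. Protein sequences were not analysed here.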

Additional observations from a re-analysis of the deposited data

Results flagged for a closer look

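Among 48 groups of values tested, 2 had a mouse far from the others of its group, where chance would give about 5% of groups. The highest *Mrpl45* value at 29°C, 35.1 CPM in mouse 2, stood apart from the other mice at 29°C by a gap of 0.644 of the group's range. The highest *Mrps12* value at 29°C, 32.3 CPM in mouse 6, stood apart by 0.635 of the range.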

How the results depend on the processing

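No member was called in any setting other than DESeq2, which called 1 higher and 1 lower, and the smallest P-adj without 1 mouse was 0.102. Leaving out each mouse gave 0 calls, 44 to 64 members above 0, and medians of 0.021 to 0.091 for the large and 0.021 to 0.086 for the small subunit. Over all genes tested, these fits called from 5 higher and 27 lower, without mouse 3 at 29°C, to 295 and 357, without mouse 6 at 22°C. With library totals without TMM, the large subunit median was -0.00081. Compared with their alternatives, 525 values kept direction and call, 23 turned sign and 2 gained a call, those of *Mrps24* (0.26) and *Mrps6* (-0.36) with DESeq2. The sign turned for *Mrpl10* with the muscle score (0.018) or the cluster of totals (0.043) as a covariate and in libraries with higher totals only (0.034), for *Mrpl42* without the 3 mice of highest muscle score (-0.0080), and for *Mrpl44* with the cluster covariate (0.081) and in higher totals only (0.072). *Mrpl58* was at -0.039 without TMM, -0.018 with the cluster covariate, -0.021 without the 3 mice and -0.026 in higher totals only, and ran from -0.040 to 0.090 as single mice were dropped. *Mrps18c* was at 0.0050 with the replicate block, 0.029 with the cluster covariate, 0.0033 without the 3 mice and 0.019 in higher totals only, and ran from -0.072 to 0.052 as single mice were dropped. Dropping single mice also moved the small values of *Mrpl10* (-0.065 to -0.0022), *Mrpl44* (-0.13 to -0.027), *Mrps7* (-0.12 to -0.016), *Mrps12* (0.025 to 0.11) and *Mrps15* (-0.17 to -0.035) by over 1.5 times. The causes were not tested. The labels give same-numbered mice no link other than the number. Their deviations correlated at 0.05 to 0.51 over 6 pairs, and 2 of 6 mice matched their own number best. Correlations of differently numbered mice are not given beside these, so whether same-numbered mice shared more cannot be decided here. With the number as a replicate block, 0 members were called, beside 95 genes called higher and 168 lower of 17670. In that fit 56 members were above 0 and 13 were higher at an unadjusted p below 0.05 (9.52% of all genes). That count was 11 with the cluster covariate (7.37%) and in higher totals only (7.37%), and 2 with the muscle covariate (5.90%). With 5 proteins of other symbols added, 57 were above 0, and 52 without *Mrps36*. Over all genes, 130 higher and 215 lower calls with edgeR stood beside 914 and 762 with DESeq2, 44 and 104 without TMM, 11 and 31 without a filter, 14 and 32 with the muscle covariate, 1 and 3 with the cluster covariate, 18 and 25 without the 3 mice, and 1 and 7 in higher totals only. Every member had at least 126 counts in each library. The spread between 7 and 6 mice, the unknown strand setting, exons shared with neighbours and muscle RNA limit what can be said of single genes.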
